A study of Mus musculus with 24 samples.

Results

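The genes described here are the mouse zinc finger genes named Zfp600 to Zfp999: every protein-coding autosomal gene of the RefSeq annotation of mm10 whose symbol is Zfp followed by 3 digits starting with 6, 7, 8 or 9. The rule used names only and no measured value. It gave 170 genes of 20661 protein-coding autosomal genes. A peak was assigned to a gene when it overlapped a window of 1000 b on either side of its annotated start or end. The 190 genes named Zfp with a number below 600 served as the nearest comparison set.

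Group 3 innate lymphoid cells (ILC3s), lymphocytes of the gut that make IL-22 and IL-17, had been sorted from the small intestine of mice labelled as 6 to 8 weeks old into CCR6+, NKp46+ and DN subsets. Cxxc1flox/flox mice, called WT here, were compared with mice, called KO, that have the same floxed alleles and also a Cre that removes Cxxc1 in the cells expressing it. WT lacks the Cre, and because the protocols speak of old as well as young animals and of cultured cells, age and handling stay unclear. CUT&Tag, which cuts and tags chromatin where an antibody is bound, was run on 100000 cells per library with an antibody to CFP1 (the protein made by Cxxc1) or to H3K4me3, with 2 libraries per genotype, subset and antibody (24 libraries, 12 groups).

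Most genes with these names encode C2H2 zinc finger proteins, and many of those also carry a KRAB domain that recruits TRIM28 and with it SETDB1 and HP1 proteins, which place H3K9me3 on the DNA the fingers recognise. KRAB zinc finger genes lie in clusters of recent duplicates and are known for silencing retroviral and other repeated DNA. CFP1 is the subunit of the SET1 complexes that binds unmethylated CpG, and H3K4me3 marks the starts of active genes. The names alone do not tell KRAB genes from other zinc finger genes, and some members are of other kinds: Zfp703 is a transcriptional cofactor of the NET family, and Zfp706 encodes a short protein with a single finger.

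RefSeq promoter windows (build GRCm38.p6, the assembly of mm10), each running from 250 b before to 50 b after a listed start, were matched to 148 of the 170 members by gene ID. The 6 sequences printed here carry the main contrasts described in the sections that follow. Zfp869 had CFP1 in every library, Zfp868 and Zfp963 are its neighbours with the highest-ranked CFP1 peaks, Zfp959 had CFP1 in every WT and no KO library, Zfp809 had the smallest p for H3K4me3 length, and Zfp600 had no peak of either kind. They are written 5′ to 3′ on the strand of the gene, with each CG dinucleotide, the sequence CFP1 binds when unmethylated, in capitals.
Zfp869 (chr8:69716853-69717152, minus strand): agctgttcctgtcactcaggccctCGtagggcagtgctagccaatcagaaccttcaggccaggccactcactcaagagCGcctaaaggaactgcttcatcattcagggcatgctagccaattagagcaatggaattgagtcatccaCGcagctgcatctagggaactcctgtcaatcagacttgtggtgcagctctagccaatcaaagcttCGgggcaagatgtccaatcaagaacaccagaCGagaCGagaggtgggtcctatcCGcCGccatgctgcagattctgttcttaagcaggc
Zfp868 (chr8:69625499-69625798, minus strand): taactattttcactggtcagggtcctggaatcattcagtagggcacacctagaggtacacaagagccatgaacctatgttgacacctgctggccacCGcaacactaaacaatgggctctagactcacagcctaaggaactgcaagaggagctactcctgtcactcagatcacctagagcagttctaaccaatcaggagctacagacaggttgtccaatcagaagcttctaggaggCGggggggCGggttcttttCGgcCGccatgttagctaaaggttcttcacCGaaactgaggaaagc
Zfp963 (chr8:69749913-69750212, minus strand): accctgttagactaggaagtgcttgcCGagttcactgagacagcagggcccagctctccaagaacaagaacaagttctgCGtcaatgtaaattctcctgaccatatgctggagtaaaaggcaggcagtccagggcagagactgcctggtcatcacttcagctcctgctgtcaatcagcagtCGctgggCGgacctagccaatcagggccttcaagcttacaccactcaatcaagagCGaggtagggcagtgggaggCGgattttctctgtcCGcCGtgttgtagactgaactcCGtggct
Zfp959 (chr17:55891843-55892142, plus strand): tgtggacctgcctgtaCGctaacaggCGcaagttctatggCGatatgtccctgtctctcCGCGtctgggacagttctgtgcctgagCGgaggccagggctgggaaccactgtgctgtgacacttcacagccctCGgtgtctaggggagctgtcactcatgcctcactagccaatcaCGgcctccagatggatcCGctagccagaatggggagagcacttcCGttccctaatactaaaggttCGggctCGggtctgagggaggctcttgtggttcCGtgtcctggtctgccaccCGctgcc
Zfp809 (chr9:22225453-22225752, plus strand): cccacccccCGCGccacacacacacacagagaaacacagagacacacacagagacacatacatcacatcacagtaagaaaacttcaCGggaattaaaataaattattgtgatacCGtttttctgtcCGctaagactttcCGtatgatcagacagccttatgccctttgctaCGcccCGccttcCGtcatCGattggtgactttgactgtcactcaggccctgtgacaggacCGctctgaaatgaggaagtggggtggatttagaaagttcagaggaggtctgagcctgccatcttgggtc
Zfp600 (chr4:146156577-146156876, plus strand): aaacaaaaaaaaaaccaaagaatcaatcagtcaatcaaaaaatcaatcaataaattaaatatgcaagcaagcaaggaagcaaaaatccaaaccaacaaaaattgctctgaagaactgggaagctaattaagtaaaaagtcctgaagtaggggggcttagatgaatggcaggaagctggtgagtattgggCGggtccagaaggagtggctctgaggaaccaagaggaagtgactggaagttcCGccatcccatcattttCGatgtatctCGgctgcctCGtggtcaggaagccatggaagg
The windows of Zfp869, Zfp868 and Zfp963 hold 8, 6 and 9 CpG, that of Zfp959 holds 14, that of Zfp809 holds 11 and that of Zfp600 holds 5. Over all members the median was 10, against 14 over the 16456 genes with a listed start and 15 over 153 Zfp genes numbered below 600. CpG counts of a gene are those of its outermost listed start. The 25 members with 2 or more listed starts can have other counts at the further ones. All of the printed windows but that of Zfp600 also hold the letters TGTCANTCA on one strand or the other (N is any base), which were picked out by reading these sequences. They occur in 29 of 148 member windows (19.6%), in 9 of 153 windows of Zfp genes numbered below 600 (5.88%) and in 345 of 16456 windows of all genes (2.10%). CCAAT, on either strand, occurs in 61.5% of member windows, 39.2% of windows of Zfp genes numbered below 600 and 39.1% of all windows. It occurs in 58.5% of windows of members marked by H3K4me3 in all 12 libraries and in 75% of those marked in none. Members with and without H3K4me3 both hold TGTCANTCA, in 21.3% of those marked in all 12 libraries and 15.0% of those marked in none.

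The peak lists differed between libraries in ways that touch every count. H3K4me3 lists held 11458 to 17602 autosomal peaks and CFP1 lists 4492 to 7815 in WT. The 12 H3K4me3 lists had wider peaks in replicate 2 than in replicate 1 of each subset and genotype. Among the libraries labelled KO, 4 CFP1 lists held 707 to 1299 peaks, but KO NKp46+ replicate 2 held 4801 and KO DN replicate 2 held 8699, the first within and the second above the range of WT. Whether these 2 libraries carry the right genotype label could not be settled, so every KO value for CFP1 holds only for libraries labelled KO. Member counts and tests for CFP1 are therefore also given without these 2 libraries. Of the 12 ILC3 marker genes, 5 to 7 had H3K4me3 in each library. H3K4me3 was listed per library at 1 to 5 of 5 T cell and 0 to 1 of 5 B cell marker genes. For myeloid and epithelial marker genes it was 0 to 3 of 5 and 1 to 4 of 5. Among the T cell genes, Cd3d also had CFP1 in all 12 libraries and Cd3e in 1 KO library, while Cd3g, Cd8a and Cd5 had none. The part of these marker genes in the values of the members was not tested.

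H3K4me3 was found at most members and in nearly the same members in every library. The mark was listed at 106 to 118 members per WT library (67.2% ± 2.72 of 170, SD, n = 6) and at 109 to 122 per KO library (68.3% ± 3.14, SD, n = 6). The share over all genes was 49.2% ± 1.65 in WT and 50.5% ± 3.35 in KO, below the member share in each of the 12 libraries, while Zfp genes numbered below 600 had 70.0% to 78.9%. The mark was on 105 members in all 12 libraries (61.8%), on 19 in 1 to 11 (11.2%) and on 46 in none (27.1%). The same classes held 43.5%, 12.5% and 43.9% of all genes. Of the 94 members marked in all 12 libraries that have a listed start, 89 had a leading region that covered this start, and in 9 it also covered the start of another coding gene. The summits of these regions lay a median of 132.5 b downstream of the start.

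**Figure D1:**
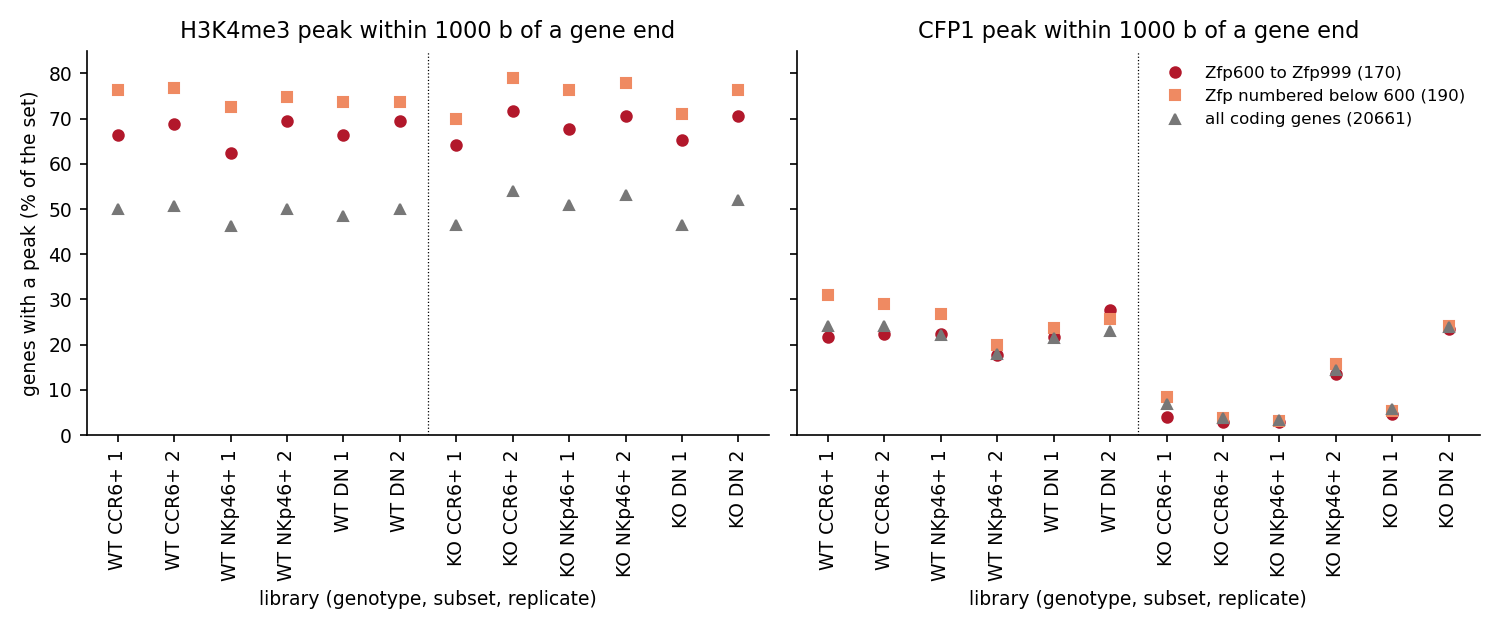
Share of genes (%) with an H3K4me3 peak (left) or a CFP1 peak (right) within 1000 b of a gene end in each of the 12 libraries, for the 170 members, the 190 Zfp genes numbered below 600 and all 20661 coding genes; the dotted line divides WT from KO. For H3K4me3 the members lie between 62.4% and 71.8%, above all genes in every library, and for CFP1 they lie at 17.6% to 27.6% in WT, 2.94% to 23.5% in KO.

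Members with the mark and few CpG were common. The promoter window of members marked in all 12 libraries held a median of 12 CpG, against 22 for all genes of that class, and that of unmarked members held 6, against 4. Among members with 6 to 15 CpG, 47 of 65 (72.3%) were marked in all 12 libraries, against 41.2% of all genes with as many. Among those with 0 to 5 CpG, 7 of 28 (25%) were, against 6.61%. With 16 CpG or more the shares were 72.7% and 71.9%. Zfp genes numbered below 600 gave 37.5%, 73.8% and 77.6% in the same 3 ranges. The counts of members are small, and genes of a cluster resemble each other in promoter sequence.

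**Figure D2:**
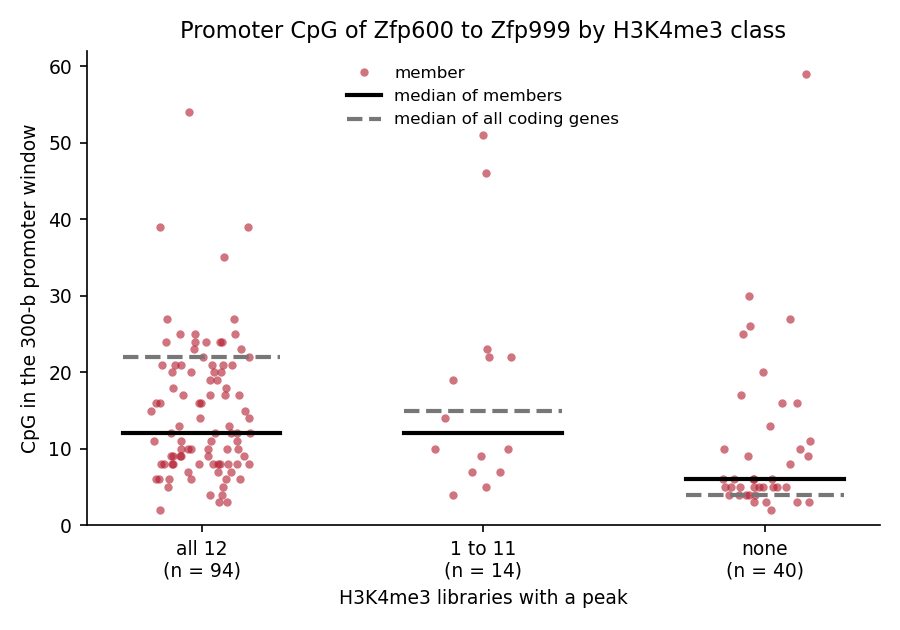
CpG number in the 300-b promoter window (y axis) of each member with a listed start (points), by the number of H3K4me3 libraries with a peak; black lines are medians of members and dashed grey lines medians of all coding genes. Members marked in all 12 libraries have a median of 12 CpG, below the 22 of all genes of that class.

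Marked and unmarked members were unevenly spread over genomic clusters. Chaining members that lie within 500 kb of each other gave 11 clusters of 4 or more members. The largest, 15 genes from Zfp990 to Zfp933 on chromosome 4 (chr4:145510759-147849126), was unmarked at 14 members, and Zfp933 at its edge was marked in all 12 libraries. Its 11 listed windows had a median of 5 CpG. The cluster of 14 genes from Zfp677 to Zfp945 on chromosome 17 (chr17:21383707-22867309) was marked at 13 members in all 12 libraries and at the other 1 in some, with a median of 10.5 CpG. All 9 members of the chromosome 7 cluster from Zfp771 to Zfp646 (chr7:127242996-127885996) were marked, 8 of them in every library, as were all 6 from Zfp930 to Zfp866 on chromosome 8 (chr8:69209018-69774911). The other coding genes inside these spans were marked in all 12 libraries at 0 of 3 for chromosome 4, 4 of 10 for chromosome 17, 15 of 21 for chromosome 7 and 1 of 4 for chromosome 8.

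Reads from near-identical copies cannot be placed with confidence, and how the aligner treated them is not given in the sources used here. As a measure, each window was divided into its 31-base words, and the share of words that also occur in a listed window of another gene, on either strand, was taken; windows of neighbours that overlap count as shared. In the chromosome 4 cluster the median share was 33.0%, and in Zfp600 it was 94.4%. In the chromosome 17 cluster the median was 3.52%, and 4 of 14 members had shares of 50% or more. Over all members, 50% or more of the words were shared in 12 of 40 unmarked members (30.0%) and 17 of 94 marked in all 12 libraries (18.1%). In the chromosome 2 cluster of Zfp970, Zfp972, Zfp971 and Zfp931, marked at 2 of 4 members in all 12 libraries, the median share was 86.7%. The part of shared sequence in the presence or absence of peaks was not tested.

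**Figure D3:**
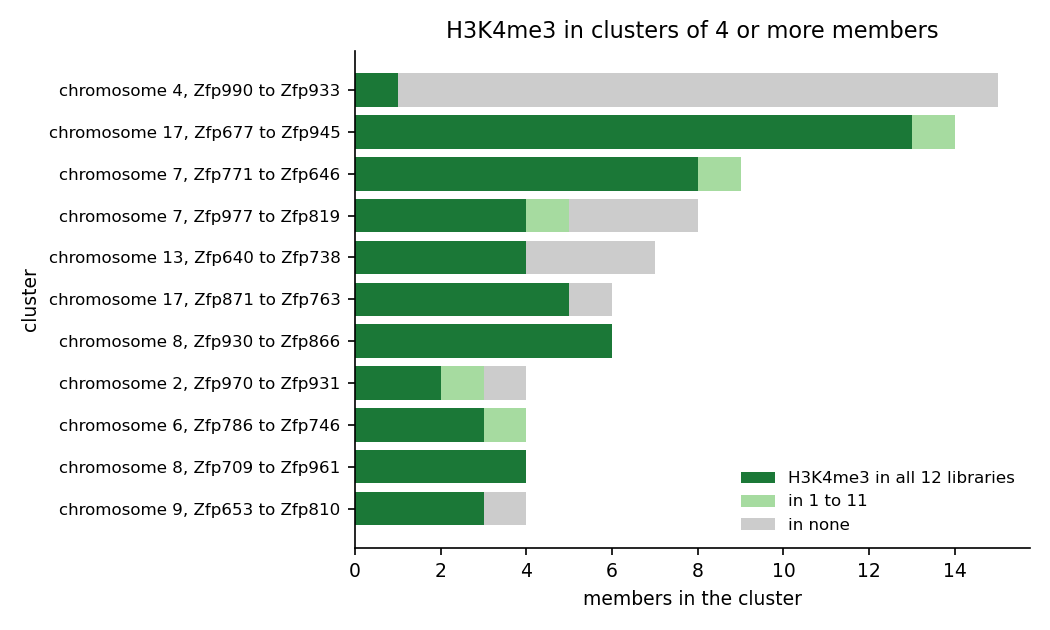
Members per cluster (x axis) with H3K4me3 in all 12 libraries, in 1 to 11 or in none, for the 11 clusters of 4 or more members chained at 500 kb, each labelled by chromosome and by its first and last member. The chromosome 4 cluster has 14 unmarked members of 15, and the larger chromosome 17 cluster has none of 14.

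No member passed the test of H3K4me3 presence between genotypes. Of the 14 members with a peak in 2 to 10 libraries, 0 passed a two-sided Fisher's exact test of KO against WT adjusted over all 1783 genes tested, and 0 had an unadjusted p under 0.05, which 1.96% of all genes tested had. Over all genes, 0 passed after adjustment and 35 had an unadjusted p under 0.05. The smallest p Fisher's exact test allows here, 0.00216, was reached, but the smallest adjusted p was 0.756. Even a member split 6 against 0 would therefore not have passed, and the lack of calls does not show equal presence. Of the 19 members marked in 1 to 11 libraries, 13 were marked in more KO than WT libraries and 3 in more WT than KO, while of the 2588 genes marked in 1 to 11 libraries 1479 had more KO and 746 more WT. The same 19 split more clearly by replicate number: 18 were marked in more replicate 2 than replicate 1 libraries, as were 88.8% of the 2588 genes of this kind, and replicate 2 is the number with the wider peaks. Zfp941 was marked in 0 of 6 WT and 3 of 6 KO libraries (exact p = 0.182, adjusted p = 0.951 by Fisher's exact test), and these 3 were the KO replicate 2 libraries. Zfp976 had the same 3 libraries, but around its listed start alone it was marked in 5 WT and 4 KO libraries. Zfp972 was marked in 3 WT libraries, WT CCR6+ replicate 1, WT NKp46+ replicate 2 and WT DN replicate 1, and in no KO library. Zfp612, Zfp688, Zfp704, Zfp800 and Zfp827 differed by 1 library between genotypes.

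The 3 subsets likewise gave no call at a member. For CCR6+, NKp46+ and DN cells, each against the other subsets, 0 of 14 members and 0 of 1783 genes passed Fisher's exact test after adjustment. An unadjusted p under 0.05 was found at 0 members and at 17, 12 and 13 genes (0.953%, 0.673% and 0.729%). With so few genes at a low p, the smallest p Fisher's exact test allows for a subset, 0.00202, could not pass either. Zfp831, one of the members with the widest subset difference, was marked in WT NKp46+ replicate 2, WT DN replicate 2 and both KO DN libraries, and in no CCR6+ library. Zfp704 was marked in all 4 CCR6+ libraries, 3 of 4 NKp46+ and 2 of 4 DN libraries. Zfp605 and Zfp651 were marked in 5 and 7 libraries, those of Zfp605 all of replicate 2. Zfp750, a regulator of epidermal differentiation, had no peak of either kind. Zfp683, which encodes Hobit, a factor of tissue-resident lymphocytes, is annotated as a pseudogene in this annotation and is not a member.

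The H3K4me3 regions of members were short. The length covered by H3K4me3 was summed over the peaks touching a gene's windows and averaged over 12 libraries as a geometric mean. The median of this mean was 980 b over the 105 members marked everywhere. It was 1213 b over the 8996 genes marked everywhere and 1002 b over 131 Zfp genes numbered below 600. Of the 105 members, 23 lay above the median of all genes, and the median of members was the lower in each of the 12 libraries (727 to 1178 b against 926 to 1434 b). Zfp703 was longest with 2705 b (1960 to 3089 b over the libraries), followed by Zfp687, Zfp664, Zfp654 and Zfp646 with 1921, 1774, 1765 and 1727 b. The regions of Zfp664, Zfp654 and Zfp646 also cover a listed start of a neighbour, Ccdc92, Cggbp1 and Zfp668. Zfp866, Zfp974 and Zfp954 were shortest with 506, 606 and 618 b.

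Covered length was compared between genotypes with limma on log2 lengths less each library's median. Of 8996 genes, 6 passed after adjustment (0.0667%), all shorter in KO, and 1 with replicate number as a block. None of the 105 members was among the 6, and 5 members had an unadjusted p under 0.05, as did 9.04% of all genes. With the block, 0 members passed (smallest adjusted p 0.128 by limma). An unadjusted p under 0.05 was then found at 7 members and at 1029 of the 8996 genes. The median difference, KO minus WT, was -0.01 log2 over members and 0.0048 over all genes. The interaction of genotype with subset called 0 genes and 0 members, with 0 members and 137 genes (1.52%) under an unadjusted 0.05. The subset contrasts called 0 genes each, and an unadjusted p under 0.05 was reached by 2.46%, 2.61% and 3.94% of genes for CCR6+, NKp46+ and DN.

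Zfp809, which encodes a KRAB protein that recruits silencing to the primer binding site of murine leukaemia virus, had the smallest p among members. Its H3K4me3 region (chr9:22224747-22226460) covered 898 to 1471 b in WT libraries and 1039 to 1696 b in KO libraries. In replicate 1, WT had 1107, 898 and 1218 b in CCR6+, NKp46+ and DN cells and KO had 1039, 1312 and 1122 b. In replicate 2, WT had 1414, 1471 and 1344 b and KO had 1679, 1696 and 1681 b. As raw lengths, the replicate 2 values of the genotypes did not overlap and those of replicate 1 did. In replicate 1 the library medians over all genes marked everywhere were 1190, 960 and 1152 b in WT and 926, 1141.5 and 968 b in KO. Relative to the library medians, the values of the genotypes overlapped in neither replicate. Because Zfp809 has the smallest p among members, such gaps are no further support for a difference. How many of all genes have such gaps was not counted. Relative to the library median the length differed by 0.26 log2 (SE 0.0537), KO minus WT, with a limma p of 0.000535 and an adjusted p of 0.117, which misses the threshold. CFP1 was listed there in 3 WT and 2 KO libraries.

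Zfp758 and Zfp944 are neighbours on opposite strands that share 1 H3K4me3 region (chr17:22360530-22362076), so their lengths are a single measurement. In replicate 1, WT had 924, 911 and 927 b in CCR6+, NKp46+ and DN cells and KO had 586, 728 and 635 b. In replicate 2, WT had 1120, 1193 and 1547 b and KO had 1036, 1008 and 1044 b. KO was the shorter in each subset and replicate number. Both genes were named for their small p, so this order is no further support for a difference. How many of all genes show this order was not counted. The difference was -0.33 log2 (SE 0.0895, limma adjusted p = 0.260), and with WT DN replicate 2 left out it was -0.27. Zfp830 and Zfp952 had differences of 0.17 and 0.19 (adjusted p = 0.438 and 0.525 by limma).

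**Figure D4:**
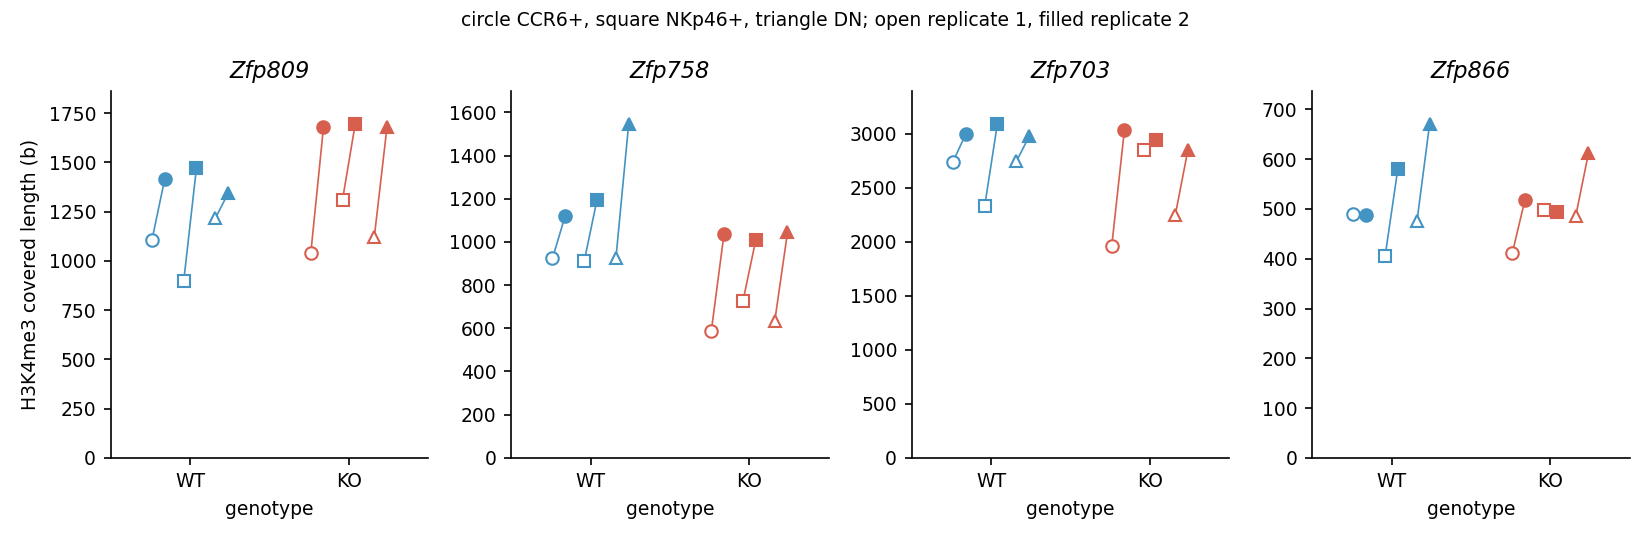
H3K4me3 covered length (b) of Zfp809, Zfp758, Zfp703 and Zfp866 in each library, WT in blue and KO in red, with circles for CCR6+, squares for NKp46+ and triangles for DN; open symbols are replicate 1, filled ones replicate 2, and lines join the replicates of a group. Zfp703 reaches 3089 b and Zfp866 at most 671 b, and in Zfp758 every KO library lies below the WT library of the same subset and number. Zfp809 and Zfp758 are among the members named for a small p for length.

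CFP1 was listed at 30 to 47 members per WT library and at 5 to 40 per KO library. In WT, replicates 1 and 2 had 37 and 38 members for CCR6+, 38 and 30 for NKp46+, then 37 and 47 for DN cells. In KO they had 7 and 5, 5 and 23, then 8 and 40. The KO libraries with 23 and 40 are those with the long lists, and without them KO had 5 to 8, below every WT library. Over all genes the same gap was seen: without the long lists KO had 691 to 1428 genes with CFP1, and WT had 3698 to 4998. The share of members was 22.3% ± 3.19 in WT (SD, n = 6), close to the 22.2% ± 2.34 of all genes. In KO it was 8.63% ± 8.32, against 9.70% ± 7.99 of all genes (SD, n = 6). Of the 170 members, 62 had CFP1 in any library, 60 in any WT library and 18 in all 6 (10.6%, against 11.7% of all genes). Of the 42 with CFP1 in any KO library, 25 had it only in KO NKp46+ or KO DN replicate 2.

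CFP1 at members coincided with H3K4me3, as it did at nearly all genes. None of the 46 members without the mark had CFP1 in any library, nor did 99.5% of the 9077 unmarked genes. In each library every member with CFP1 had H3K4me3 in the library of the same genotype, subset and number, as had every CFP1-bearing Zfp gene numbered below 600 and 98.8% to 99.96% of all genes with CFP1. Among marked members, 33.2% ± 4.74 also had CFP1 in WT (SD, n = 6), against 44.9% ± 4.81 of all marked genes and 34.9% ± 4.88 of marked Zfp genes numbered below 600. In KO the shares of marked members and of all marked genes were 12.4% ± 11.7 and 18.9% ± 14.9 (SD, n = 6). Without KO DN replicate 2 they were 8.25% ± 6.25 and 13.6% ± 8.27 (n = 5), and without both long lists 5.52% ± 1.53 and 10.3% ± 4.10 (n = 4). The member share was below that of all genes in 6 of 6 WT and 6 of 6 KO libraries. Marked members with CFP1 in 5 or 6 WT libraries had a median of 14 CpG (all such genes 25) and a median H3K4me3 length of 1153 b (n = 29; all such genes 1390 b). Marked members without CFP1 in WT had 9 CpG (all such genes 19) and 877 b (n = 47; all such genes 1004 b).

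Most members tested had CFP1 in fewer KO than WT libraries, but no single member passed the test with all libraries. Among the 49 members tested, 44 had CFP1 in fewer KO than WT libraries, 3 in more and 2 in as many; of the 5613 genes tested, 91.4% had fewer. By Fisher's exact test 0 of 5613 genes and 0 members passed after adjustment, the smallest adjusted p being 0.203. An unadjusted p under 0.05 was reached by 5 members and by 419 genes (7.46%), all with fewer KO libraries. For 6 WT against 0 KO libraries the exact test gives p = 0.00216, the smallest this design allows. Zfp959 had this split and did not pass, so no member could have passed with all libraries. Without KO DN replicate 2, 260 of 5353 genes (4.86%) and 3 of 47 members passed: Zfp959, Zfp771 and Zfp689. Without both long lists, 732 of 5282 genes (13.9%) and 6 members passed, the same 3 with Zfp703, Zfp719 and Zfp786, each with 6 WT and 0 of 4 KO libraries (adjusted p = 0.0344 by Fisher's exact test); 22 members and 38.3% of genes then had an unadjusted p under 0.05. These 2 libraries were left out for their many CFP1 peaks, the quantity tested, so their removal favours fewer KO than WT libraries and these p-values are a description, not a test of genotype.

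Of the 29 members with CFP1 in 5 or 6 WT libraries, 10 had it in 0 or 1 KO library (a pattern of 3.48% of all genes), 14 in 2 or 3 and 5 in 4 or more. The share with 0 or 1 was 21.7% over all genes with 5 or 6 WT libraries. Zfp959 (gene 224893, chr17:55891084-55898935) had CFP1 in all 6 WT and no KO library, a pattern that 54 of 20661 genes showed (0.261%). The CFP1 region (chr17:55891755-55892462) covered its listed start, and its peaks stood at a median rank of 96.6% by fold enrichment within the WT lists. The listed start lies inside the annotated gene, near the edge of the window: with windows of 500 b no CFP1 peak was counted in any library, and around the listed start itself the count was again 6 WT and 0 KO. Its H3K4me3 was present in all 12 libraries and its length differed by 0.02 log2 (SE 0.0501, limma adjusted p = 0.957).

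Zfp871 had CFP1 in 5 WT libraries, missing only in WT NKp46+ replicate 2, and in no KO library. Zfp689, Zfp771 and Zfp703 had it in 6 WT and 1 KO library, which was KO DN replicate 2 for Zfp689 and Zfp771 and KO NKp46+ replicate 2 for Zfp703. Zfp719, Zfp740 and Zfp786 had 6 WT and 2 KO libraries, with KO DN replicate 2 among them each time. The peak of Zfp771 lies 9832 b downstream of its listed start, at the other end of the gene. The peak of Zfp786 covers the listed start of Zfp398, so it cannot be assigned to Zfp786 alone. H3K4me3 was present at all 7 of these genes in all 12 libraries, and none passed the test for length.

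**Figure D5:**
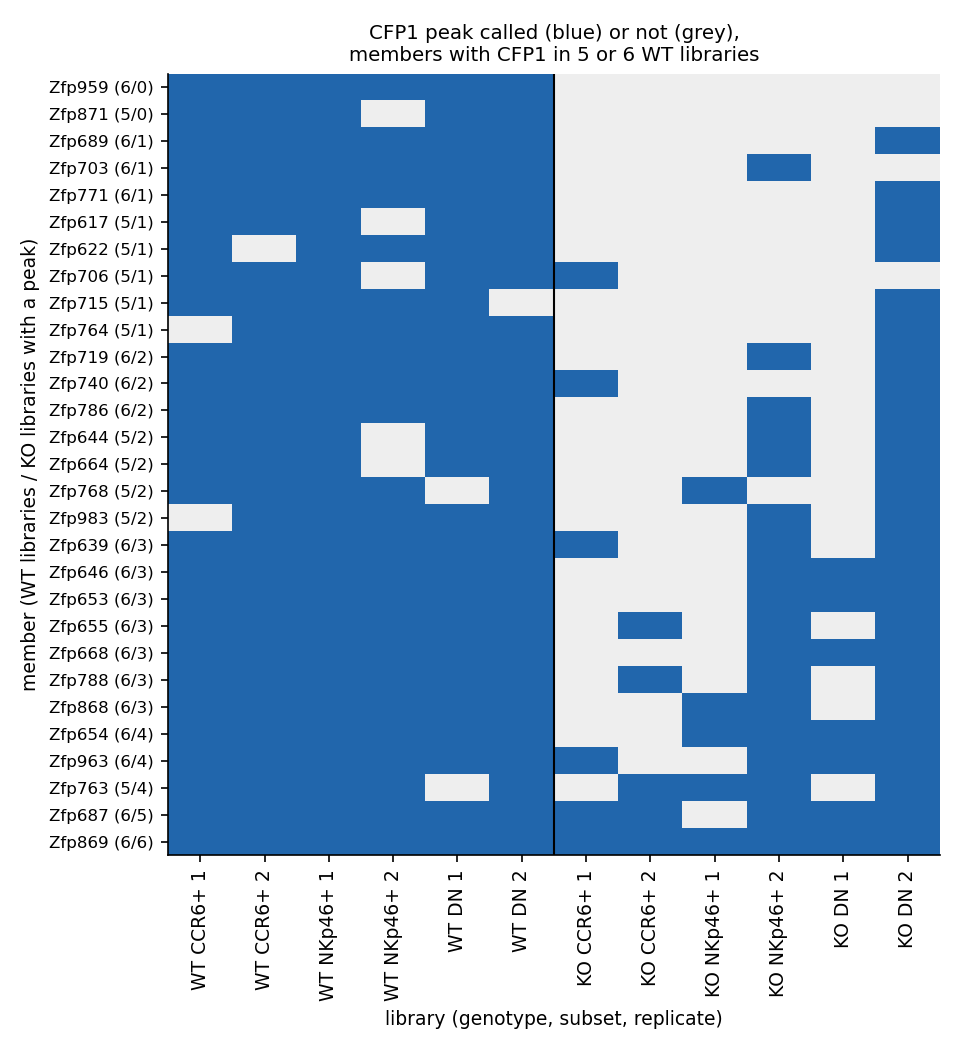
CFP1 peak called (blue) or not (grey) in each of the 12 libraries (x axis) for the 29 members with CFP1 in 5 or 6 WT libraries (y axis, with their WT and KO library counts), sorted by the KO count. Most blue tiles of KO lie in NKp46+ and DN replicate 2, and Zfp869 is blue throughout.

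Of the 18 members with CFP1 in all 6 WT libraries, the 3 with the highest-ranked peaks lay in the chromosome 8 cluster. Zfp963, Zfp868 and Zfp869 had CFP1 in all 6 WT libraries at median ranks of 99.5%, 99.1% and 98.4% by the authors' fold enrichment within each list. Their windows at the outermost start hold 9, 6 and 8 CpG, fewer than the median of 25 for marked genes with CFP1 in 5 or 6 WT libraries. In KO, Zfp869 had CFP1 in 6 of 6 libraries, Zfp963 in 4 and Zfp868 in 3. Zfp868 has a further listed start in the gene, whose window (chr8:69625126-69625425) holds 29 CpG. Its CFP1 region (chr8:69625176-69625761) covers most of that window too, so the 6 CpG do not describe all of the sequence under the peak. The region of Zfp869 (chr8:69716439-69717439) covered its start, and 98.5% of the 31-base words of its window occur in the window of another gene, while those of Zfp963 and Zfp868 share 0%. Zfp866 in the same cluster had CFP1 in 3 WT and 1 KO library, Zfp964 in 1 WT and no KO library, and Zfp930 in none. Zfp687, on chromosome 3, had CFP1 in 6 WT and 5 KO libraries at a rank of 91.4%, and Zfp654 in 6 WT and 4 KO libraries at 85.4%, in a region it shares with Cggbp1.

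The partners through which KRAB zinc finger proteins silence DNA were mostly marked. Of the 28 genes in this list, 23 had H3K4me3 in all 12 libraries, as had 43.5% of all genes, and 4 in none. Of the 20 with CFP1 in any library, 18 had it in fewer KO than WT libraries and 0 in more; of the 7270 such genes in all, 86.2% had fewer and 5.34% more. None passed the test for either antibody. The widest difference, 4 libraries, was found at 7 genes, among them the chromatin remodeller Smarcad1 with 4 WT and 0 KO libraries and Trim24 with 6 and 2. Chosen for their role, Trim28, which the KRAB domain binds, had CFP1 in 6 WT and 3 KO libraries, and the HP1 genes Cbx3 and Cbx5 in all 12. Cbx1, also an HP1 gene, had CFP1 in 2 WT libraries and no KO library. Setdb1, the H3K9 methyltransferase of the complex, had CFP1 in 1 WT library and no KO library. All of these had H3K4me3 in all 12 libraries.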

How the data were processed

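CUT&Tag peak lists of 24 libraries were used, with group and replicate taken from the sample titles. The submitters' processing notes name mm10 as the build and fastp 0.19.7, Bowtie2 2.3.5.1, Picard, ChIPseeker 1.28.3 and MACS2 2.2.7.1 as tools. Settings, controls and the handling of duplicates or multiply placed reads are not given in the sources used. For every peak, the lists deposited by the authors (1 per library, narrowPeak format) hold a fold enrichment (a ratio). They also hold, as deposited, −log10 values of the p-value and the q-value. Fold enrichment is the authors' value and only ranked or filtered peaks of a single list. The lists hold no read totals, so depth is unknown, no intervals are given, and a missing peak means that none was called.

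Presence of a peak within 1000 b of a gene end was compared per gene with a two-sided Fisher's exact test over genes with a peak in 2 to 10 of 12 libraries (scipy 1.17.1), and H3K4me3 covered length with limma 3.58.1 (trend, subset as a term) over genes marked in all 12 libraries. P-values were adjusted by Benjamini-Hochberg over all genes tested, with a threshold of 0.05. The scripts were tested on simulated data. Gene positions came from a RefSeq table of GRCm38.p6, promoter sequences from RefSeq. The members, the gene lists and the tests were chosen with earlier results of these data known. Genes named are those with the widest differences in library counts, highest CFP1 ranks, extreme lengths or smallest length p, with Zfp683, Zfp809, Zfp750 and Zfp703 for their known roles and genes of the fixed lists; the cluster members, Zfp600, Zfp706 and the 2 motifs were added after the values or sequences were seen. The member on chromosome 18 is counted without coordinates or sequence. No 2 peak lists were identical.

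No label states that replicates are separate animals; p-values therefore speak only of the spread among these libraries, which may be technical. Whether same-numbered WT and KO libraries of a subset deviate together was checked over genes. For H3K4me3 presence the correlations were 0.115, 0.164 and 0.281 in CCR6+, NKp46+ and DN. For length they were 0.258, 0.388 and 0.408. The numbers were treated as possible pairs of these libraries, from the data and not from the labels, and what they share is not known. The main tests left this pairing out, and the replicate block was an alternative. Alternatives were other windows, overlaps and peak thresholds, other tests, the replicate block and leaving out libraries.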

Additional observations from a re-analysis of the deposited data

Results flagged for a closer look

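In 1 of 30 sets of 6 libraries looked at (WT or KO libraries of 1 antibody), a library stood apart: the H3K4me3 covered length of Zfp954 was 797 b in KO DN replicate 2, far above the other KO libraries, which had 569 to 595 b. Chance sets apart about 1 in 20 such sets.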

How the results depend on the processing

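Neither antibody's presence test nor the subset tests called any gene under other windows, overlaps, peak thresholds, filters or permutations, except that CFP1, KO against WT, called 260 genes without KO DN replicate 2 and 732 with the 2 long KO lists left out, an alternative added after seeing the data (with each other library left out, 0). For CFP1 the correlations by replicate number were lower than for H3K4me3 presence in each subset (0.040, 0.072 and 0.200 in CCR6+, NKp46+ and DN). With the replicate block, an exact permutation within pairs, 54 genes and 1 member had an unadjusted p under 0.05, against 419 and 5. Its 64 arrangements allow no p below 0.03125, which only a split of 6 against 0 libraries reaches. A gene could pass adjustment only if most genes tested had that split. The lower counts and the lack of calls under the block were therefore fixed by its design and do not measure robustness. For covered length, KO against WT, the 6 calls became 0 with no median subtraction, 13 with quantile normalization, 31 with genes in 6 or more libraries and 1 with the replicate block. Leaving out 1 library gave 0 to 17 calls for that contrast, 0 to 1 for CCR6+ and 0 to 13 for genotype by subset; the cause was not tested. The block changed no other call. Zfp976 H3K4me3 turned from 50 percentage points more KO than WT libraries to -16.7 with windows of 2000 b, the whole gene or listed starts only. The mean number of members per library, KO minus WT, was -31.6 to -15.7 for CFP1 and 0.37 to 3.43 for H3K4me3 under all alternatives. With 2 libraries per group and unknown depth, small differences cannot be seen.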
